A study of Mus musculus with 11 samples.

Results

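The 7 genes described here, Nanog, Sall4, Sall1, Utf1, Lin28a, L1td1 and Zscan10, encode proteins that accompany the transcription factors Oct4 (gene Pou5f1) and Sox2 in pluripotent mouse cells. They were chosen by gene symbol, current or old, and 11 of the 25697 probes on the array carry 1 of these symbols. Sall4 has 3 probes, Sall1 and Lin28a have 2 each, and the other 4 genes have 1 each. All 11 probes were detected (detection p-value under 0.01) on at least 2 of the 11 arrays, as were 13048 probes of the whole array. Of the 11 probes, 10 were detected on every array, and the dimmest Sall4 probe was detected on 8.

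Nanog is a homeodomain protein that binds many of the same enhancers as Oct4 and Sox2 and stabilises self-renewal. Sall4 and Sall1 are spalt-type zinc-finger proteins that bind Nanog and Oct4 and recruit the nucleosome remodelling and deacetylase complex (NuRD). Utf1 is a chromatin-associated protein of pluripotent cells, and Zscan10, formerly Zfp206, is a zinc-finger activator with a SCAN domain. Lin28a binds RNA and blocks the maturation of let-7 microRNAs, and L1td1 is an RNA-binding protein that arose from a LINE retrotransposon. Embryonic stem cells (ESC) hold the naive state of the early blastocyst, while epiblast stem cells (EpiSC) are derived from the post-implantation epiblast and hold the primed state.

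Total RNA was measured on Illumina MouseRef-8 v2 bead arrays in 6 groups of cultured cells, all male per the labels. T9-EpiSC, with 1 array, are cells of the line T9 that were grown on CF1 embryonic fibroblasts in a medium labelled UM, kept 2 days without Fgf2 and harvested without the fibroblasts. EpiSC-GFP+ and EpiSC-GFP- are cells of the line E3 in CM, the conditioned EpiSC medium, sorted for presence or absence of an Oct4-GFP reporter. Epi-Sox2 are GOF18 cells that overexpress wild-type Sox2 in CM. EpiSC are GOF18 cells without the overexpression, in a medium the labels do not name, and ESC are embryonic stem cells of an unnamed line. Sox2 overexpression and a possible difference in medium therefore cannot be told apart between Epi-Sox2 and EpiSC. The last 5 groups have 2 arrays each, which the labels call biological replicates without saying whether they came from separate cultures. Each group comes from 1 named or unnamed line, so that cell type and line cannot be told apart in any comparison with ESC, and line and sort cannot be told apart between E3 and GOF18 cells.

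The mean scanner intensity was 323.6 on the T9-EpiSC array, 199.7 to 371 on the other 8 epiblast stem cell arrays and 594.8 to 622.5 on the ESC arrays, and 9250 to 11675 probes were detected per array. Replicate arrays correlated at r = 0.987 to 0.995 over the tested probes. Of 9 measured markers of naive cells, 9 were detected on both ESC arrays, 8 on each Epi-Sox2 and EpiSC-GFP+ array and 6 on each T9-EpiSC, EpiSC-GFP- and EpiSC array. Their summed linear signal was 1504 in T9-EpiSC, 28850 to 29270 in EpiSC-GFP+, 2678 to 2746 in EpiSC-GFP-, 10500 to 11090 in Epi-Sox2, 850.1 to 868.9 in EpiSC and 39020 to 40600 in ESC. Dppa5a was the brightest marker in ESC (mean log2 signal 14.88, against 12.03 for Esrrb, the next) and weighs most in the sum. The single markers differed: in EpiSC-GFP+ relative to ESC, 4 were lower by the test described below, 0 higher, and 5 did not pass. Of 8 measured markers of primed cells, 7 or 8 were detected on the epiblast stem cell arrays and 4 or 5 on the ESC arrays. Of 10 measured fibroblast markers, 8 were detected on the T9-EpiSC array, 3 to 6 on the other epiblast stem cell arrays and 10 on both ESC arrays, with summed signals of 5573, 2947 to 5441, and 4146 to 4329 in that order. Col1a1, Col3a1, Dcn, Lox and Twist1 were detected on 0 of 2 EpiSC arrays and on both ESC arrays. Col6a1 and Fbln2 were detected on 1 EpiSC array and on both ESC arrays. Thy1, Acta2 and Ccn2 were detected on all arrays of both groups. By the test described below, 8 of the 10 markers were lower in EpiSC than in ESC and 1 was higher. The higher one was Ccn2 (mean log2 signal 11.29 against 10.73 in ESC), while Acta2 was among the lower ones (7.99 against 10.68). Ccn2 and Acta2 were the brightest of these markers in both groups and weigh most in the summed signals. Of 6 measured primitive streak markers, 6 were detected on the T9-EpiSC array, 5 and 6 on the EpiSC arrays and 1 to 3 on the others. The part of these markers and of array brightness in the differences below was not tested.

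Values below are log2 signals of 1 probe after background correction and quantile normalization, and a difference of 1 is a 2-fold change. Differences were tested with limma in 1 model of all 11 arrays, and a difference was called where its p-value, adjusted over the 13048 tested probes, was under 0.05. For a probe not well above background on both arrays of a group the fold is a lower bound, for which the dim arrays take the lowest signal of any detected probe or, if higher, that of the probe itself. Calls were repeated under up to 22 alternatives (another background correction, normalization, filter, choice of probe or fit, the authors' values, or 1 array left out), and for calls named here that were lost the number of such alternatives, or the alternative, is given. In bulk RNA, fewer cells that express a gene and less of its RNA per cell cannot be told apart.

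Nanog (GRCm38.p6, chr6:122707489-122714633) was lower in all epiblast stem cell groups than in ESC. It stood at 10.37 in T9-EpiSC, at 9.02 and 9.13 in EpiSC-GFP+, at 7.57 and 8.07 in EpiSC-GFP-, at 9.09 and 8.83 in Epi-Sox2, at 9.23 and 8.89 in EpiSC, and at 12.10 and 12.04 in ESC. Both ESC arrays were above all 9 epiblast stem cell arrays, and both EpiSC-GFP- arrays were below all others. Nanog fell by 3.01 ± 0.19 (SE, n = 2 arrays each) in EpiSC relative to ESC, which is 8.06-fold (adjusted p = 1.03e-06), and by 4.25 ± 0.19 in EpiSC-GFP- relative to ESC, which is 19-fold (adjusted p = 7.83e-08). The differences from ESC were -3.00 ± 0.19 in EpiSC-GFP+ and -3.11 ± 0.19 in Epi-Sox2, both called. The order of the group means, low to high, was EpiSC-GFP- (7.82), Epi-Sox2 (8.96), EpiSC (9.06), EpiSC-GFP+ (9.07), T9-EpiSC (1 array) and ESC (12.07).

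Within the E3 line, Nanog was 1.26 ± 0.19 higher in EpiSC-GFP+ than in EpiSC-GFP- (2.39-fold, adjusted p = 0.00237). The 3 groups in the middle of the order were not told apart. Nanog differed by -0.10 ± 0.19 between Epi-Sox2 and EpiSC (adjusted p = 0.765), by 0.01 ± 0.19 between EpiSC-GFP+ and EpiSC (adjusted p = 0.959) and by 0.12 ± 0.19 between EpiSC-GFP+ and Epi-Sox2 (adjusted p = 0.664). The Sox2 probe with the highest mean signal stood at 8.51 and 8.61 in Epi-Sox2, against 7.74 and 7.51 in EpiSC. The other Sox2 probe was the brighter one in ESC (9.98 and 9.97, against 9.10 and 8.99). It stood at 5.07 and 5.13 in Epi-Sox2 and was not well above background in EpiSC. The Pou5f1 probe with the highest mean signal stood at 13.15 and 13.10 in EpiSC-GFP+, against 13.51 and 13.48 in EpiSC-GFP-, so that on this probe its transcript was not higher in the fraction sorted for the reporter. The raw Nanog intensity was 1250 in T9-EpiSC, 487 and 493.8 in EpiSC-GFP+, 186.7 and 178.7 in EpiSC-GFP-, 498.8 and 471.4 in Epi-Sox2, 733.6 and 443 in EpiSC, and 8646 and 8013 in ESC.

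**Figure D1:**
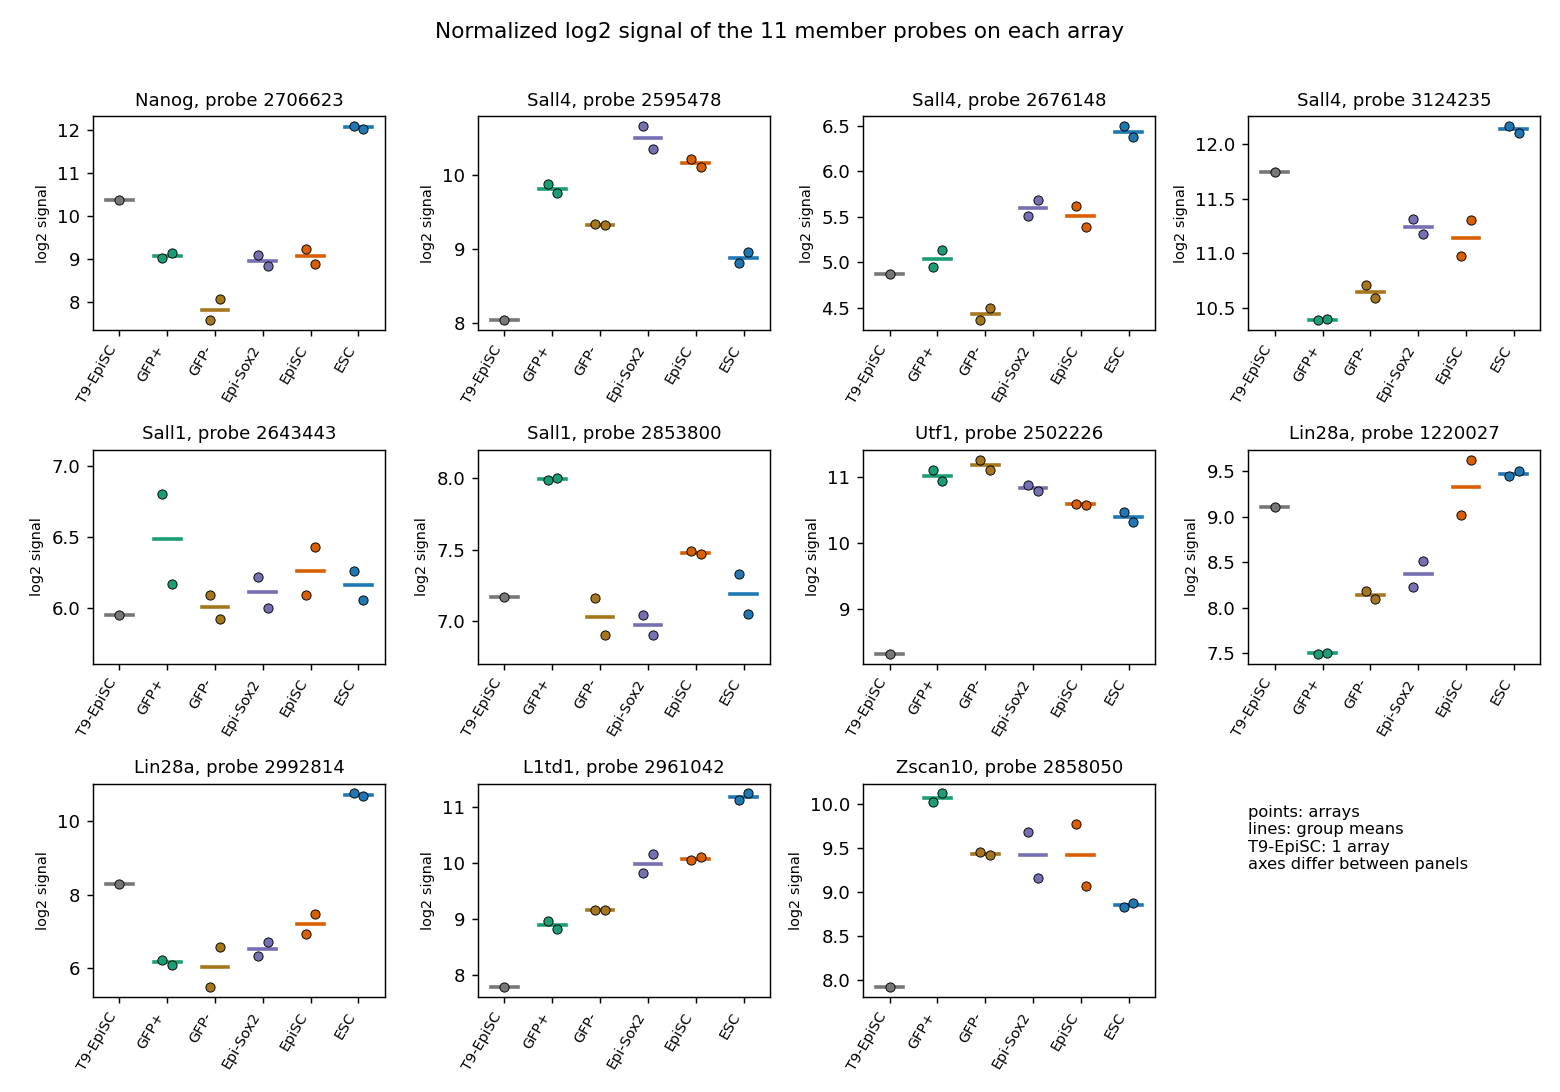
Log2 signal (vertical axis, with a range of its own in each panel) of the 11 probes of the 7 genes, 1 panel a probe and 1 point an array, with a line at each group's mean. Nanog is above 12 on both ESC arrays and between 7.57 and 10.37 on the others, while Utf1 is lowest on the T9-EpiSC array at 8.32.

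The Nanog promoter is shown because it holds the DNA element that Oct4 and Sox2 are known to bind together. The RefSeq sequence of the 250 bases upstream of the first annotated Nanog start (GRCm38.p6, chr6:122707239-122707488, plus strand) is printed with the composite octamer and SOX element in capitals, and the Lin28a (chr4:134018817-134019066, minus strand) and Utf1 (chr7:139943606-139943855, plus strand) upstream sequences follow for comparison.
Nanog: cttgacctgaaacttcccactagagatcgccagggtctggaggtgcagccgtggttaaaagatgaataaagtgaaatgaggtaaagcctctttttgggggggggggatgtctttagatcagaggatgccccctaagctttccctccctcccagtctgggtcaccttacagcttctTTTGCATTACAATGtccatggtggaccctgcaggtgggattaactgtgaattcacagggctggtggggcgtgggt
Lin28a: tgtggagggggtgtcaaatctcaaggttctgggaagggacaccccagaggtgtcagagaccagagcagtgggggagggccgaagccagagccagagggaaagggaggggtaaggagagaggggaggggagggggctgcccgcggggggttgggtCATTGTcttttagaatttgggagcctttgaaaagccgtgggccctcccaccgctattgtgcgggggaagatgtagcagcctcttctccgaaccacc
Utf1: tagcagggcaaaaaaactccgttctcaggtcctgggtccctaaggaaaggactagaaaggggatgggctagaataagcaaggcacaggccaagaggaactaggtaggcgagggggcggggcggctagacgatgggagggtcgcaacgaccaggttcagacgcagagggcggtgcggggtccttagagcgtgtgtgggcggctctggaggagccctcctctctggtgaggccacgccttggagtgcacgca
The composite, TTTGCAT and ACAATG with 1 base of any kind between them, was searched on both strands of windows from 250 bases before to 50 bases after each annotated start. It was found in 2 of 32851 windows, which are the 2 overlapping Nanog windows and hold the same copy, TTTGCATTACAATG, at -75 from the first start and -151 from the second. The searched letters are those of this Nanog copy with 1 base freed, so that a match in Nanog was fixed in advance. Composite elements with other letters were not searched, and the count does not say how rare such elements are. The octamer part alone, TTTGCAT, was present in 5.24% of 27025 genes, and the SOX part, ACAATG, in 14.3%. Windows were given for 6 of the 7 genes, and Sall4 had none. Lin28a held the SOX part on the opposite strand at -96, printed as CATTGT in capitals, without the octamer part. None of these letters was found in the windows of Utf1, L1td1, Zscan10 and Sall1, which says nothing about other sequences or other windows. A match is a description of the sequence and not of binding in these cells.

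Sall4 (GRCm38.p6, chr2:168748332-168767201) gave opposite answers with different probes. The brightest probe, ILMN_3124235, stood at 11.74 in T9-EpiSC, at 10.39 and 10.40 in EpiSC-GFP+, at 10.71 and 10.59 in EpiSC-GFP-, at 11.31 and 11.18 in Epi-Sox2, at 10.98 and 11.30 in EpiSC, and at 12.16 and 12.10 in ESC. ILMN_2595478 stood at 8.03 in T9-EpiSC, at 9.87 and 9.75 in EpiSC-GFP+, at 9.33 and 9.32 in EpiSC-GFP-, at 10.66 and 10.35 in Epi-Sox2, at 10.21 and 10.11 in EpiSC, and at 8.81 and 8.95 in ESC. On the first probe ESC was the highest group without overlap, and on the second it was below all groups but T9-EpiSC. The platform annotation assigns the brightest probe to a different RefSeq transcript of Sall4 than the other 2 probes. Probe sequences and positions are not used here.

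In EpiSC relative to ESC, Sall4 differed by -1.0 ± 0.14 on ILMN_3124235 (adjusted p = 1.87e-04), by -0.94 ± 0.14 on the dim probe ILMN_2676148 (adjusted p = 3.29e-04) and by 1.28 ± 0.14 on ILMN_2595478 (adjusted p = 3.68e-05). The dim probe and ILMN_2595478 carry the same annotated transcript, so the annotation does not separate the directions. ILMN_2676148 stood at 4.87 in T9-EpiSC, at 4.95 and 5.13 in EpiSC-GFP+, at 4.36 and 4.50 in EpiSC-GFP-, at 5.51 and 5.69 in Epi-Sox2, at 5.62 and 5.39 in EpiSC, and at 6.50 and 6.38 in ESC. It was not well above background on either EpiSC-GFP- array, where Sall4 was at least 2.06-fold lower than in ESC. Opposite calls of this kind were found in all 4 comparisons with ESC for Sall4 (in EpiSC-GFP- the higher call was lost in 4 of 21 alternatives), and in EpiSC against ESC for 307 of 2426 genes with more than 1 tested probe (12.7%). The direction of Sall4 as a gene between ESC and epiblast stem cells was therefore not settled by these arrays.

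In the T9-EpiSC array the Sall4 probes also parted, with ILMN_2595478 the lowest of all 11 arrays and ILMN_3124235 above the other epiblast stem cell arrays. In EpiSC-GFP- relative to EpiSC, Sall4 was lower on ILMN_3124235 (-0.49, adjusted p = 0.0261, lost in 4 of 22 alternatives), on ILMN_2595478 (-0.84, adjusted p = 0.00227) and, by at least 1.07-fold, on ILMN_2676148 (adjusted p = 7.97e-04, lost in 1 of 21 alternatives). In Epi-Sox2 relative to EpiSC no Sall4 probe was called, with differences of 0.11, 0.35 and 0.09 and adjusted p-values of 0.661, 0.127 and 0.712. In EpiSC-GFP+ relative to EpiSC-GFP- the brightest probe differed by -0.26 (adjusted p = 0.22) and ILMN_2595478 was 0.49 ± 0.14 higher (adjusted p = 0.036), a call that ended in 8 of 21 alternatives. ILMN_2676148 was also called (adjusted p = 0.0157, lost in 6 of 21 alternatives), but it was detected on 1 of 2 EpiSC-GFP+ arrays and 0 of 2 EpiSC-GFP- arrays, and no fold is given.

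**Figure D2:**
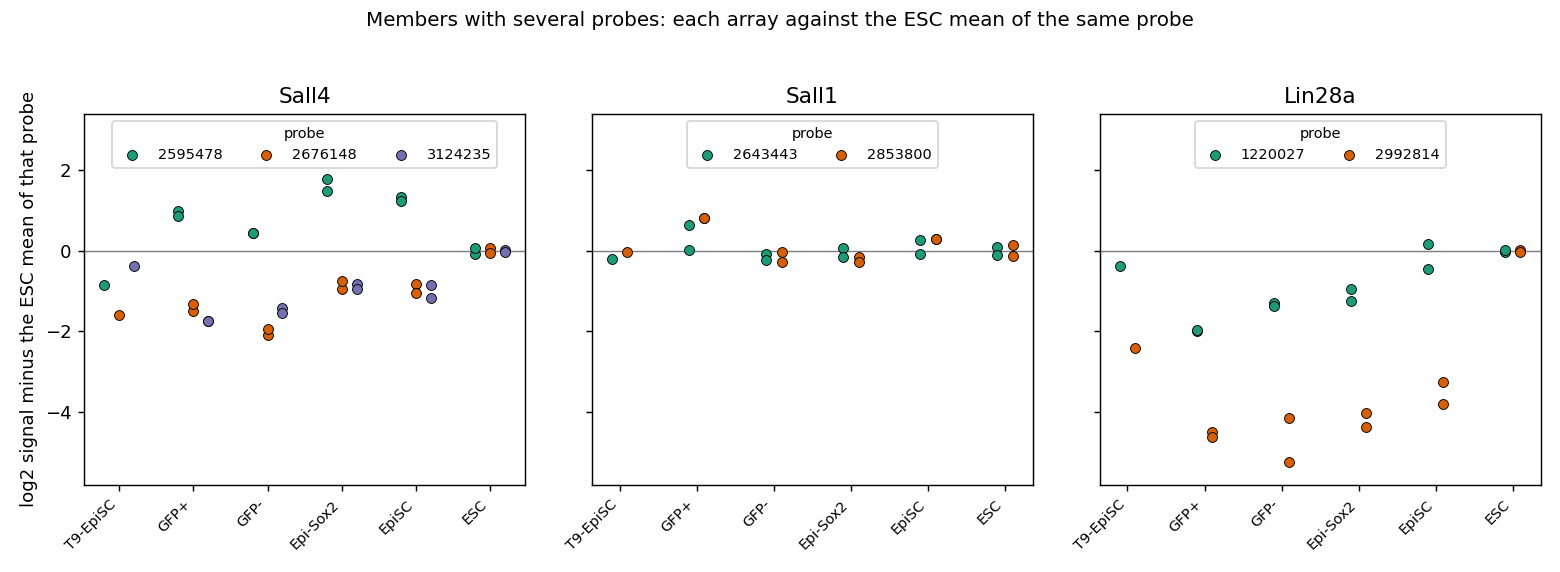
Log2 signal of each probe minus the ESC mean of the same probe (vertical axis) for Sall4, Sall1 and Lin28a on every array, with the probes in separate colours. In EpiSC 1 Sall4 probe lies on average 1.28 above the ESC mean while the others lie at -1.0 and -0.94, and the Lin28a probes lie at -0.15 and -3.52.

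Sall1 (GRCm38.p6, chr8:89027242-89044162) was highest in the reporter-positive E3 fraction. Its brighter probe, ILMN_2853800, stood at 7.17 in T9-EpiSC, at 7.99 and 8.0 in EpiSC-GFP+, at 7.16 and 6.90 in EpiSC-GFP-, at 7.04 and 6.90 in Epi-Sox2, at 7.49 and 7.47 in EpiSC, and at 7.33 and 7.05 in ESC. Both EpiSC-GFP+ arrays were above all other arrays, and the remaining arrays lay between 6.90 and 7.49. Sall1 was 0.96 ± 0.15 higher in EpiSC-GFP+ than in EpiSC-GFP- (1.95-fold, adjusted p = 0.00254) and 0.81 ± 0.15 higher in EpiSC-GFP+ than in ESC (adjusted p = 8.55e-04). It fell by 0.51 ± 0.15 in Epi-Sox2 relative to EpiSC (adjusted p = 0.043), a call that ended in 12 of 22 alternatives, with an adjusted p of up to 0.186, among them each fit that left out 1 of the 4 arrays compared. The dimmer probe, ILMN_2643443, ranged between 5.92 and 6.80 over the 11 arrays and was called by limma in 0 of the 10 comparisons, with an unadjusted p of 0.0531 at the lowest, for EpiSC-GFP+ against EpiSC-GFP-.

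Utf1 (GRCm38.p6, chr7:139943856-139945112) lay between 10.32 and 11.26 in the replicated groups. It stood at 8.32 in T9-EpiSC, at 11.11 and 10.93 in EpiSC-GFP+, at 11.26 and 11.10 in EpiSC-GFP-, at 10.87 and 10.79 in Epi-Sox2, at 10.59 and 10.58 in EpiSC, and at 10.47 and 10.32 in ESC. The 2 ESC arrays were below the 8 arrays of the other replicated groups and above the T9-EpiSC array. Relative to ESC, Utf1 was 0.63 ± 0.13 higher in EpiSC-GFP+ (adjusted p = 0.00196), 0.79 ± 0.13 higher in EpiSC-GFP- (adjusted p = 4.23e-04) and 0.43 ± 0.13 higher in Epi-Sox2 (adjusted p = 0.0159, lost in 4 of 22 alternatives), while EpiSC differed by 0.19 ± 0.13 (adjusted p = 0.222). Under cyclic loess normalization the call was kept in EpiSC-GFP- only, with adjusted p = 0.0165, and EpiSC turned to -0.17. In the order of means, EpiSC-GFP- (11.18) and EpiSC-GFP+ (11.02) were not told apart (adjusted p = 0.419), nor were EpiSC-GFP+ and Epi-Sox2 (adjusted p = 0.282) or Epi-Sox2 and EpiSC (adjusted p = 0.243).

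Zscan10 (GRCm38.p6, chr17:23600826-23611019) was higher in EpiSC-GFP+ than in ESC. It stood at 7.92 in T9-EpiSC, at 10.02 and 10.12 in EpiSC-GFP+, at 9.45 and 9.42 in EpiSC-GFP-, at 9.68 and 9.16 in Epi-Sox2, at 9.77 and 9.07 in EpiSC, and at 8.83 and 8.88 in ESC. Both EpiSC-GFP+ arrays were above all others, and the EpiSC replicates stood further apart than the E3 or ESC replicates. The difference from ESC was 1.22 ± 0.23 in EpiSC-GFP+ (2.32-fold, adjusted p = 0.00108) and 0.58 ± 0.23 in EpiSC-GFP- (adjusted p = 0.0466), a call lost in 10 of 22 alternatives, with an adjusted p of 0.537 under cyclic loess. EpiSC (0.57, adjusted p = 0.0544) and Epi-Sox2 (0.56, adjusted p = 0.0576) had differences of a like size that did not pass. Zscan10 differed by 0.64 ± 0.23 between EpiSC-GFP+ and EpiSC-GFP- (adjusted p = 0.074) and by -0.01 ± 0.23 between Epi-Sox2 and EpiSC (adjusted p = 0.99).

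Lin28a (GRCm38.p6, chr4:134003330-134019196) was measured by 2 probes that disagreed on the size of its difference from ESC. ILMN_2992814 stood at 8.30 in T9-EpiSC, at 6.23 and 6.10 in EpiSC-GFP+, at 5.48 and 6.57 in EpiSC-GFP-, at 6.34 and 6.71 in Epi-Sox2, at 6.92 and 7.47 in EpiSC, and at 10.75 and 10.68 in ESC. ILMN_1220027, the brighter of the pair by its mean over all arrays, stood at 9.11 in T9-EpiSC, at 7.49 and 7.50 in EpiSC-GFP+, at 8.18 and 8.09 in EpiSC-GFP-, at 8.23 and 8.51 in Epi-Sox2, at 9.02 and 9.63 in EpiSC, and at 9.45 and 9.50 in ESC. On the first probe ESC was far above all others, and on the second 1 EpiSC array was above both ESC arrays. In EpiSC relative to ESC the difference was -3.52 ± 0.32 on ILMN_2992814 (adjusted p = 9.52e-06) and -0.15 ± 0.19 on ILMN_1220027 (adjusted p = 0.524). The gap of 3.37 between the probes was larger than that of 97% of the 2426 genes with several tested probes, whose median was 0.79.

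Both Lin28a probes were called lower in the other 3 replicated groups than in ESC. On ILMN_1220027 the differences were -1.98 ± 0.19 in EpiSC-GFP+, -1.34 ± 0.19 in EpiSC-GFP- and -1.10 ± 0.19 in Epi-Sox2, and on ILMN_2992814 they were -4.55, -4.69 and -4.19, each ± 0.32. On EpiSC-GFP- replicate 1 the signal of ILMN_2992814, 5.48, was near the lowest of any detected probe there, 5.34. Lin28a was also lower in Epi-Sox2 than in EpiSC on ILMN_1220027 (-0.96 ± 0.19, adjusted p = 0.0114), while ILMN_2992814 differed by -0.67 ± 0.32 (adjusted p = 0.183). Without Epi-Sox2 replicate 1 the first of these had an adjusted p of 0.0917. In EpiSC-GFP+ relative to EpiSC, Lin28a was lower on both probes, with differences of -1.83 ± 0.19 (adjusted p = 1.52e-04) and -1.03 ± 0.32 (adjusted p = 0.0304, lost in 5 of 21 alternatives). Between the sorted fractions ILMN_1220027 fell by 0.64 ± 0.19 in EpiSC-GFP+ (adjusted p = 0.0397, lost in 10 of 22 alternatives), against a difference of 0.14 on ILMN_2992814 (adjusted p = 0.796), on which the EpiSC-GFP- arrays were more than 1 log2 unit apart.

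L1td1 (GRCm38.p6, chr4:98726754-98738486) followed the lines, from which sort, culture and cell type cannot be told apart here. It stood at 7.77 in T9-EpiSC, at 8.97 and 8.82 in EpiSC-GFP+, at 9.16 and 9.16 in EpiSC-GFP-, at 9.82 and 10.16 in Epi-Sox2, at 10.05 and 10.11 in EpiSC, and at 11.13 and 11.25 in ESC. The T9, E3, GOF18 and ESC arrays followed each other without overlap. Relative to ESC, L1td1 fell by 1.11 ± 0.15 in EpiSC (2.16-fold, adjusted p = 1.11e-04) and by 2.29 ± 0.15 in EpiSC-GFP+ (4.9-fold, adjusted p = 8.04e-07), and the differences were -2.03 ± 0.15 in EpiSC-GFP- and -1.20 ± 0.15 in Epi-Sox2. Relative to EpiSC it differed by -1.18 ± 0.15 in EpiSC-GFP+ (adjusted p = 3.41e-04) and by -0.92 ± 0.15 in EpiSC-GFP- (adjusted p = 0.00168). Within a line it was not told apart, with differences of -0.26 ± 0.15 between EpiSC-GFP+ and EpiSC-GFP- (adjusted p = 0.219) and -0.09 ± 0.15 between Epi-Sox2 and EpiSC (adjusted p = 0.74).

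Counted over the 11 probes, the members were called in EpiSC against ESC at a share near that of all probes. In EpiSC relative to ESC 6 were called, 1 higher and 5 lower, against 64.9% of all tested probes (37.2% higher and 27.7% lower). The median difference was -0.15 for the member probes and 0.16 for all tested probes. In Epi-Sox2 relative to ESC 8 were called, 2 higher and 6 lower, against 63.8% of all probes (36.6% higher and 27.2% lower). EpiSC-GFP+ had 10 called relative to ESC, 4 higher and 6 lower, against 68.1% of all probes (39.6% higher and 28.5% lower). EpiSC-GFP- had 9, 3 higher and 6 lower, against 71.4% of all probes (40.4% higher and 31% lower). The median member difference from ESC was -0.84 in Epi-Sox2, -1.4 in EpiSC-GFP+ and -1.34 in EpiSC-GFP-, against 0.16, 0.2 and 0.17 for all probes. These 4 comparisons share the ESC arrays. A call against ESC was thus the common case on these arrays, and the member counts are read against that.

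Within a line fewer members were called. In Epi-Sox2 relative to EpiSC 2 of 11 were called, both lower, against 16.7% of all probes (8.65% higher and 8.01% lower, median -0.02), and they were 1 probe each of Sall1 and Lin28a. In EpiSC-GFP+ relative to EpiSC-GFP- 5 of 11 were called, 4 higher and 1 lower, against 23.8% of all probes (12% higher and 11.8% lower). The 4 were Nanog, Sall1 and 2 Sall4 probes, and the 1 was Lin28a. The median member difference there was 0.48, against -0.01 for all probes. Between lines, 7 were called in EpiSC-GFP+ relative to EpiSC, 2 higher and 5 lower, against 36.8% of all probes (17.1% higher and 19.7% lower), and 9 in EpiSC-GFP- relative to EpiSC, 1 higher and 8 lower, against 33.4% (15.9% higher and 17.6% lower). The 8 lower ones in the reporter-negative fraction were Nanog, L1td1, the 3 Sall4 probes, both Lin28a probes and 1 Sall1 probe, and the higher one was Utf1. Of these calls, that of Sall1 ILMN_2853800 was lost in 10 of 22 alternatives, that of Lin28a ILMN_2992814 in 4 of 21 and that of Utf1 in 1 of 22, and the losses of the Sall4 calls are given above. Relative to Epi-Sox2, 6 of 11 were called in EpiSC-GFP+, 1 higher and 5 lower, against 37.8% of all probes (18.4% higher and 19.5% lower). In EpiSC-GFP- 5 of 11 were called relative to Epi-Sox2, 0 higher and 5 lower, against 40.3% of all probes (19.4% higher and 20.9% lower).

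**Figure D3:**
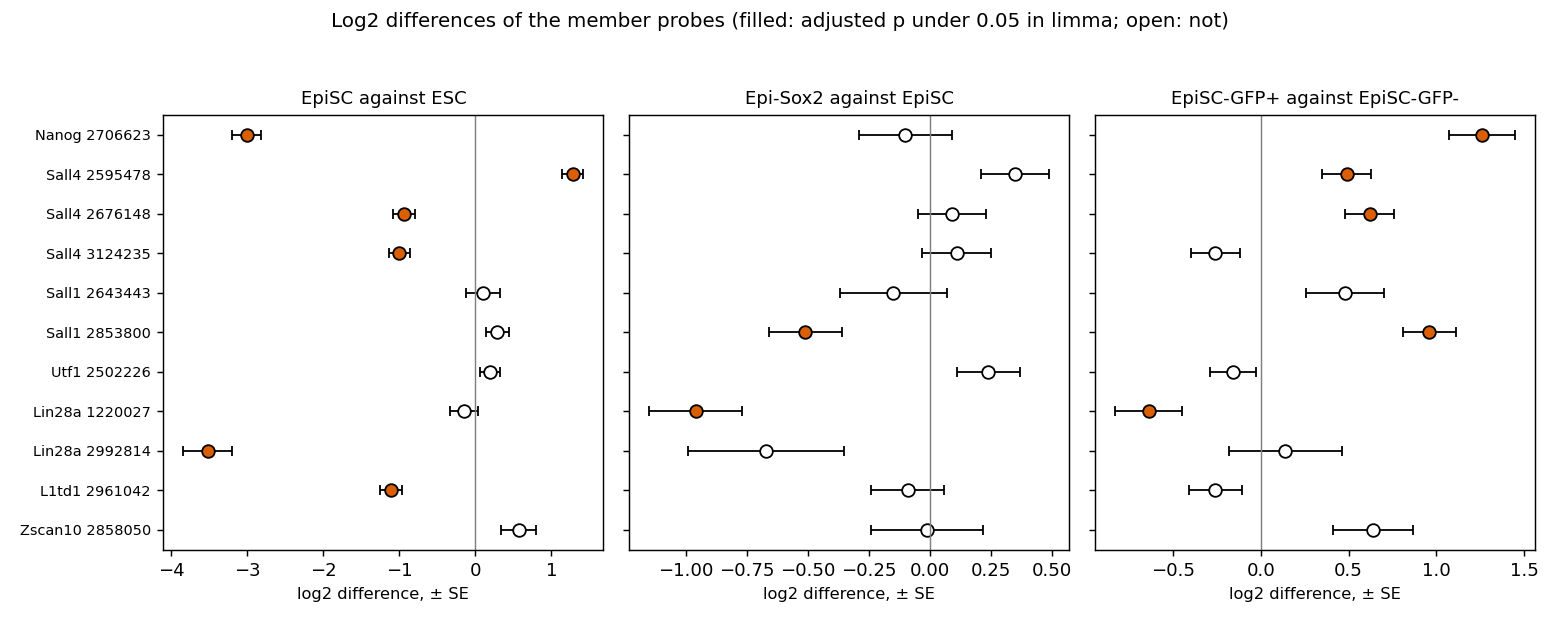
Log2 difference of each member probe (horizontal axis, with a range of its own in each panel) in EpiSC against ESC, Epi-Sox2 against EpiSC and EpiSC-GFP+ against EpiSC-GFP-, with bars of 1 standard error and filled points for called differences. Nanog is at -3.01 in EpiSC against ESC, close to 0 in Epi-Sox2 against EpiSC, and at 1.26 in EpiSC-GFP+ against EpiSC-GFP-.

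The single T9-EpiSC array allows no test, and its values are given as a description. It was the lowest of all 11 arrays for Utf1, L1td1, Zscan10 and the Sall4 probe ILMN_2595478, which are 4 of 11 member probes, against 12.7% of all tested probes. The value minus the ESC mean was -2.08 for Utf1, -3.42 for L1td1, -0.93 for Zscan10 and -0.85 for that Sall4 probe. It was above all 8 other epiblast stem cell arrays for Nanog and for 1 probe each of Sall4 (ILMN_3124235) and Lin28a (ILMN_2992814), against 22.3% of all probes. Its Nanog signal minus the ESC mean was -1.70, while the other 8 arrays ranged from 7.57 to 9.23 with a median of 8.96. Utf1 at 8.32 compares with a lowest value of 10.58 among the other 8 arrays. This array also had 8 of 10 fibroblast and 6 of 6 primitive streak markers detected, and the part of these in its values was not tested.

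Genes that work with the members were counted from 4 lists, using the brightest probe of each gene. The lists were chosen with earlier results of these data known, and the shares of all probes count every tested probe. The list counts are therefore descriptions. Of 33 genes of the wider pluripotency network, which hold the transcription factors and Dppa genes that naive cells are known for, 24 were tested. In EpiSC relative to ESC 18 were lower and 3 higher, against 27.7% lower and 37.2% higher of all tested probes, with a median difference of -1.32 against 0.16. As the list holds genes known for the naive state, more lower than higher calls could be foreseen. The largest falls were Dppa5a at -6.27, Esrrb, an orphan nuclear receptor that binds many Nanog targets, at -4.94, and Dppa4 at -4.92, together with Tbx3, which was not well above background in EpiSC and at least 20-fold lower than in ESC. Sall2, another spalt gene, was 2.77 higher. In Epi-Sox2 relative to EpiSC 13 of 24 were higher and 3 lower (median 0.63), against 8.65% higher and 8.01% lower of all probes. Sox2, the overexpressed gene that defines the group, is 1 of the 13, which were led by Dppa5a (4.32), Dppa4 (3.69), Esrrb (3.42) and Zfp42 (2.75), which encodes Rex1. In EpiSC-GFP+ relative to EpiSC-GFP- 16 of 24 were higher and 0 lower by limma (median 0.74, with 2 lower at an unadjusted p under 0.05), against 12% higher and 11.8% lower of all probes, led by Esrrb (3.62), Dppa5a (3.61), Dppa4 (3.48) and Klf4, which was at least 7.68-fold higher because it was not well above background in EpiSC-GFP-. One of the 16, Rif1, was not well above background in either fraction. Summed naive marker signal, which shares genes with this list, differed between the groups as given above.

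**Figure D4:**
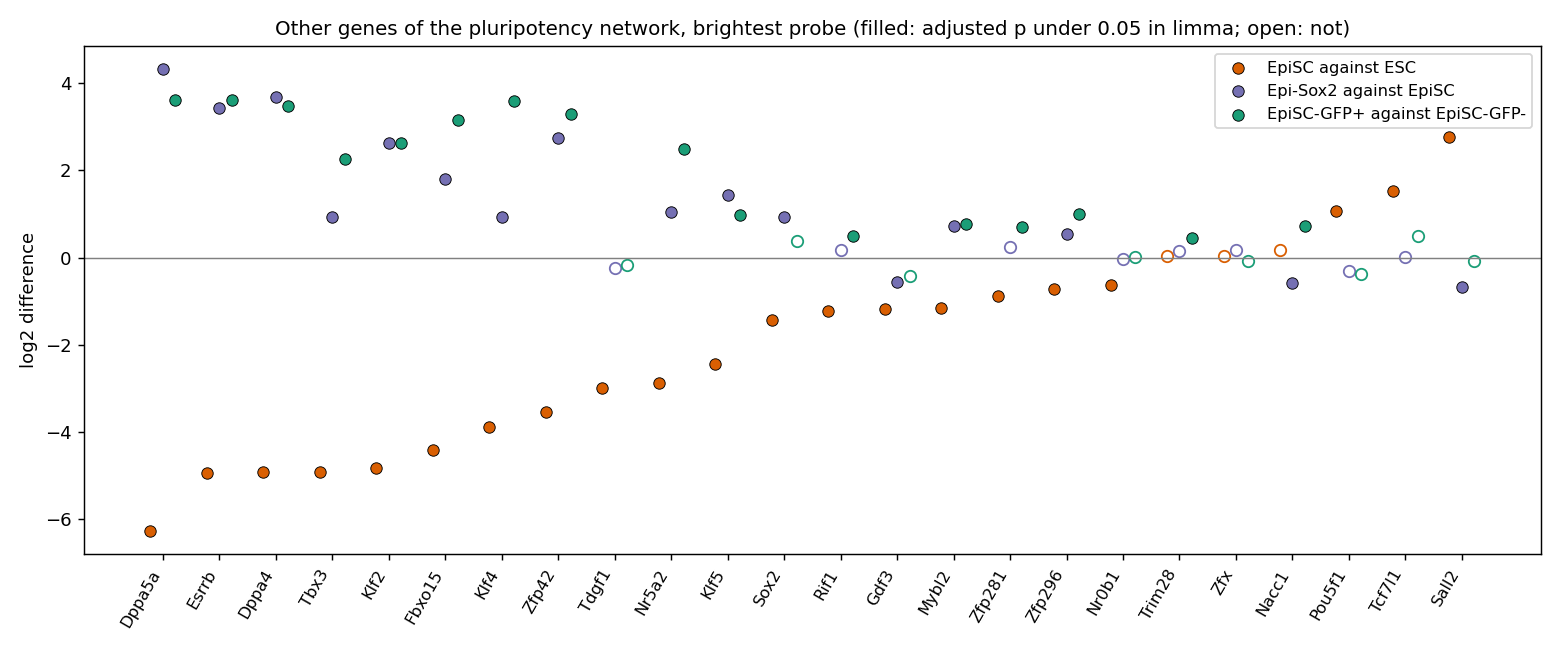
Log2 difference (vertical axis) of the 24 tested genes of the wider pluripotency network in EpiSC against ESC, Epi-Sox2 against EpiSC and EpiSC-GFP+ against EpiSC-GFP-, 1 point a gene and filled where called, in order of the first comparison. Of the 24 genes 18 are lower in EpiSC than in ESC, 13 are higher in Epi-Sox2 than in EpiSC and 16 are higher in EpiSC-GFP+ than in EpiSC-GFP-.

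Of 10 tested genes listed as targets of composite Oct4 and Sox2 elements, 4 were higher and 6 lower in EpiSC relative to ESC, against 37.2% higher and 27.7% lower of all probes, with a median of -1.75. Pou5f1, Sox2, Fbxo15, Zfp42, Dppa4 and Tcf7l1 are in this list and in the network list above, with the same probes. The counts of the lists are therefore not separate results. Lefty1, an inhibitor of Nodal, was 2.23 higher, while Dppa4, Fbxo15 (-4.41) and Zfp42 (-3.53) were lower, as was the ligand gene Fgf4 (-2.08). Jarid2, a Polycomb cofactor, was not well above background in EpiSC and was at least 4.79-fold lower than in ESC. Of the same 10 genes, 5 were higher and 0 lower by limma in Epi-Sox2 relative to EpiSC (median 0.59, with 1 lower at an unadjusted p under 0.05). The 5 include Fgf4 at 1.87 and Sox2 itself, the overexpressed gene. Between EpiSC-GFP+ and EpiSC-GFP- 4 were higher and 1, Lefty1 at -0.90, was lower in EpiSC-GFP+ (median 0.45). Of all probes 8.65% were higher and 8.01% lower in the first of these comparisons, and 12% and 11.8% in the second. Nanog, which carries the element printed above and is not counted in this list, was called between the sorted fractions and was not called between Epi-Sox2 and EpiSC.

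Of 17 tested NuRD subunits and other protein partners of Nanog or Sall4, 4 were higher and 5 lower in EpiSC relative to ESC (median -0.20), against 64.9% of all probes called. Nacc1, Zfp281 and Rif1 are also counted in the network list. The largest differences were those of Ogt, the O-GlcNAc transferase (-1.83), Mta1, a NuRD subunit (1.34), Arid3b (1.25) and Rif1 (-1.22). In Epi-Sox2 relative to EpiSC 1 was higher (Mta3, 0.56) and 2 were lower (Nacc1, -0.58, and Hdac1, -0.44), with a median of 0.01 and against 16.7% of all probes called. In EpiSC-GFP+ relative to EpiSC-GFP- 6 were higher and 1 lower (median 0.24), against 12% higher and 11.8% lower of all probes. Rif1, not well above background in either fraction, is 1 of the 6. The largest differences were those of Mta3 (0.88), Nacc1 (0.72), Zfp281 (0.70) and Rbbp7 (-0.54).

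Of 19 tested genes of the Lin28 and let-7 axis, which hold microRNA processing factors and known let-7 targets, 8 were higher and 4 lower in EpiSC relative to ESC (median 0.20), near the 64.9% called among all probes. Arid3b is also counted among the protein partners. The RNA helicase gene Ddx3x (-4.31) and the let-7 target Igf2bp1 (-2.36) were lower, while Arid3b (1.25) and Dis3l2, the nuclease that degrades uridylated let-7 precursors (1.18), were higher. Dicer1, the nuclease that cuts microRNA precursors, was the 1 gene called in Epi-Sox2 relative to EpiSC, at -0.49 (median 0.08, against 16.7% of all probes called). In EpiSC-GFP+ relative to EpiSC-GFP- Dicer1 (0.61) and Drosha (0.43) were higher and Ccnd1 (-0.55) was lower, with a median of -0.05 and against 23.8% of all probes called. The arrays measured no mature let-7.

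For each member the genes with the most similar profile were found by Pearson correlation over the 11 arrays, and again over the 9 arrays that are not ESC. The arrays of a group share their line, so that these values are descriptions without a test. For Nanog the closest were Atxn10 (r = 0.992), Acp6 (0.991) and Ptma (0.985), and without ESC Acp6 (0.971), H1f10 (0.97) and Cetn3 (0.968). Acp6 was in both sets. For Sall4, on its brightest probe ILMN_3124235 alone, the closest were Suclg1 (0.984), Rpl7a (0.983) and the deacetylase gene Hdac2 (0.982), none of which was among the 3 closest without ESC, where Dusp26 led (0.987). For Sall1, on its brighter probe ILMN_2853800 alone, they were Nacc1 (0.919), Tmem81 (0.899) and Wif1 (0.896), and without ESC Apobec3 led (0.96). For Utf1 the closest was Sfn, which encodes the adaptor protein stratifin, with r = 0.983 over 11 arrays and 0.993 without ESC. The Utf1 range of 2.94 in both sets is set by the single T9-EpiSC array (8.32, against 10.32 to 11.26 on the other arrays). No profile was compared without that array. For Lin28a, on its brighter probe ILMN_1220027 alone, it was the ribosomal protein gene Rplp0, with r = 0.989 and 0.985. For L1td1 the closest were the Y-linked gene Eif2s3y (0.985) and the cadherin gene Cdh1 (0.944), and without ESC Gcdh (0.97) and Eif2s3y (0.969). Eif2s3y ranged over 4.81 log2 units on the 11 arrays and 3.12 without ESC, although all groups are labelled male. The cause of that range was not tested. For Zscan10 it was the ETS factor gene Etv4 (0.955), and without ESC Smtn (0.986).

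Among the members themselves, Utf1 and Zscan10, with 1 probe each, stood at r = 0.83 over the 11 arrays and 0.851 without the ESC arrays. Both values include the T9-EpiSC array, which was the lowest of all 11 for Utf1 (8.32) and for Zscan10 (7.92). Nanog and Utf1 ran in opposite directions, at -0.481 with the ESC arrays and -0.807 without them. Values that involve Sall4 depended on the probe, as seen when every probe was compared, a choice made after seeing the data. Over the 11 arrays Nanog and Sall4 stood at 0.841 on ILMN_3124235, at 0.818 on ILMN_2676148 and at -0.507 on ILMN_2595478. Sall4 and Zscan10 stood at -0.765, -0.206 and 0.715 on the same 3 probes. Sall4 and the Lin28a probe ILMN_1220027 stood at 0.848, 0.607 and -0.318 in that order. Nanog and Lin28a stood at 0.608 on ILMN_1220027 and at 0.95 on ILMN_2992814. The single T9-EpiSC array is 1 of the points in each of these values. No value was computed without it, so its weight in them was not tested.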

How the data were processed

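The deposited scanner table holds, for 25697 probes and 11 arrays, mean bead intensity values that are not normalized per the design text, and a detection p-value that per the file headers belongs to each probe. BeadStudio 3.2 is named in the submitters' processing notes. The deposited series matrix holds log2 values made by the authors, whose notes name lumi and RMA without an order. Its column medians were all 2.64 and its columns ranked the probes as the scanner intensities do, while its background handling and any shift of its scale stay unknown, so it served only as an alternative. Groups were taken from the sample titles.

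From the intensities, normexp correction by detection p-values with an offset of 16, quantile normalization and log2 were computed with neqc (limma 3.58.1, R 4.3.3). The 13048 probes detected at p under 0.01 on 2 or more arrays were fitted with lmFit and eBayes, with 1 mean per group over 11 arrays, 5 residual and 4.4 prior degrees of freedom, two-sided tests and Benjamini-Hochberg adjustment at 0.05. The 10 pairs of the 5 replicated groups were tested. With 2 arrays a group, the number of arrays limits the precision, and p-values measure only the spread between these arrays, which may be technical. The script was tested on simulated data.

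Probes were named by the platform annotation with symbols brought up to date by Entrez number (23978 probes with 1 symbol, 1719 with none). Upstream sequences are from RefSeq (GRCm38.p6). All probes of the 7 genes are named, up to 4 genes per list by size of the difference among those called, and the 3 genes of most similar profile per member, left out where their range was under 0.5 of the member's. Sall2 and, for EpiSC against ESC, Lefty1 and Fgf4 were named after their values were seen. Members and lists were chosen with earlier results of these data known. Arrays with the same replicate number did not deviate together (r from -0.02 to 0.08 over 10 pairs of groups), and the numbers were not used to pair them. The alternatives left out 1 array at a time, took median scaling or cyclic loess for the normalization, raised the offset to 50 or skipped the background step, dropped or tightened the detection filter, kept the brightest probe per gene, fitted just the compared arrays, added an intensity trend or a replicate block, or used the authors' values.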

Additional observations from a re-analysis of the deposited data

How the results depend on the processing

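Of 110 differences of member probes, recomputed under up to 22 alternatives, 67 were called and 46 of these kept their call in every alternative. Of 2380 recomputed values 2173 kept their direction and side of the threshold, 108 lost a call, 65 gained one and 34 turned their sign, 0 of them in a called difference. In Epi-Sox2 against EpiSC the count of called member probes was 1 in place of 2 with cyclic loess, with the authors' values, without the detection filter and with only the arrays compared. With only the brightest probe of each of the 7 genes, it was 5 in place of 8 in Epi-Sox2 against ESC, 3 in place of 6 in EpiSC against ESC, and 3 in place of 5 between the sorted fractions, since fewer member probes were tested by construction. In the last comparison the authors' values also gave 3. For the others the cause was not tested. Leaving out 1 array at a time gave counts from 0 (without Epi-Sox2 replicate 1) to 2 in Epi-Sox2 against EpiSC, from 2 to 6 in EpiSC-GFP+ against EpiSC-GFP-, from 3 (without either EpiSC-GFP+ array) to 8 in EpiSC-GFP+ against EpiSC, from 6 to 8 in EpiSC against ESC, from 7 to 9 in Epi-Sox2 and in EpiSC-GFP- against ESC, and from 10 to 11 in EpiSC-GFP+ against ESC. A group left with 1 array was assumed to vary like the others.

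Cyclic loess moved the median of all probes in EpiSC against ESC to -0.04, against 0.16 with quantile normalization, and the share of higher calls to 46.4%, against 57.3%. In Epi-Sox2 against ESC that share was 47.6% against 57.4%, in EpiSC-GFP- against ESC 47.5% against 56.6%, and in EpiSC-GFP+ against ESC 48.6% against 58.1%. Median scaling moved the median of all probes against ESC to between 0.3 and 0.49. In EpiSC against ESC, cyclic loess turned Utf1 to -0.17, Sall1 ILMN_2853800 to -0.08 and Sall1 ILMN_2643443 to -0.14. It turned Zscan10 to 0.03 in Epi-Sox2 against EpiSC, to -0.07 in EpiSC-GFP- against Epi-Sox2 and to -0.04 in EpiSC-GFP- against EpiSC, where median scaling gave -0.07. Median scaling turned Sall1 ILMN_2643443 to 0.03 in Epi-Sox2 against ESC and Sall4 ILMN_3124235 to -0.04 in Epi-Sox2 against EpiSC. None of these differences was called with quantile normalization.

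Leaving out 1 array at a time turned the sign of 18 uncalled differences. In Epi-Sox2 against EpiSC the ranges were -0.26 to 0.09 for L1td1, -0.27 to 0.06 for Nanog, -0.32 to 0.02 for Sall1 ILMN_2643443, -0.02 to 0.21 for Sall4 ILMN_2676148, -0.05 to 0.27 for Sall4 ILMN_3124235 and -0.35 to 0.34 for Zscan10. In EpiSC against ESC they were -0.45 to 0.16 for Lin28a ILMN_1220027 and -0.07 to 0.27 for Sall1 ILMN_2643443, and in Epi-Sox2 against ESC -0.16 to 0.06 for the same Sall1 probe. In EpiSC-GFP- against Epi-Sox2 they were -1.06 to 0.05 for Lin28a ILMN_2992814, -0.21 to 0.01 and -0.07 to 0.20 for Sall1 ILMN_2643443 and ILMN_2853800, and -0.24 to 0.28 for Zscan10. In EpiSC-GFP+ against EpiSC-GFP- it was -0.41 to 0.70 for Lin28a ILMN_2992814. Nanog ranged from -0.01 to 0.24 in EpiSC-GFP+ against Epi-Sox2 and from -0.15 to 0.18 in EpiSC-GFP+ against EpiSC, Sall1 ILMN_2643443 from -0.10 to 0.54 in the last comparison, and Zscan10 from -0.34 to 0.36 in EpiSC-GFP- against EpiSC.

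With the replicate number as a block, 2 member probes were called in Epi-Sox2 against EpiSC, 7 in EpiSC against ESC, 5 in EpiSC-GFP+ against EpiSC-GFP-, 9 each in Epi-Sox2 and EpiSC-GFP- against ESC, 10 in EpiSC-GFP+ against ESC and 8 in EpiSC-GFP+ against EpiSC. A slide block was not run, as the files name no slide. Signal near background limits the dimmest Sall4 probe, and the Lin28a probe ILMN_2992814 on EpiSC-GFP- replicate 1.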
